A study of Mus musculus with 3 samples.

Results

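Single-cell RNA sequencing libraries of mouse duodenal immune cells held 3751 cell barcodes with more than 15% of their unique molecular identifiers (UMIs, each counting 1 captured transcript) on the 13 messenger RNAs encoded by mitochondrial DNA. They were chosen as the barcodes with at least 500 UMIs, at least 200 detected genes and over 15% of UMIs on symbols that start with mt-, and they were 3751 of the 37035 barcodes that passed both minima (10.1%). The groups were male C57B6/J mice given mouse alpha-synuclein preformed fibrils (PFF), aggregates assembled from the recombinant protein, and male C57B6/J mice given saline, both by injection into the wall of the duodenum and both examined 30 days later. The PFF group had 1 library (PFF 1, batch 1) and the saline group had 2 (saline 1, batch 1, and saline 2, batch 2). All were loaded as a mixture of CD45-sorted cells and cells enriched on CD11b beads, with dead cells excluded by DAPI, a dye that enters cells whose membrane has failed. The number of mice per library is not given in the sources used here, so p-values refer to variation between these libraries, which may be technical. The test used for genes, edgeR, estimates this variation partly from all genes together. A small p-value can therefore stand beside a wide spread of that gene between libraries.

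A cell's mitochondria carry their own small genome, whose transcripts encode subunits of the respiratory chain and of ATP synthase and are held behind the mitochondrial membranes. When a plasma membrane fails, cytosolic messenger RNA can leak out while mitochondrial RNA is kept, so a high mitochondrial share is widely used to leave out damaged cells. Cell types also differ in how many mitochondria they hold: absorptive enterocytes of the small intestine, which spend much energy on nutrient uptake, are rich in them, whereas resting lymphocytes hold few.

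Each saline file joined 4 wells, and 3 of these held the same barcodes with identical counts in both files. They were counted once and are called shared wells 1 to 3, or the shared saline library when pooled. Which saline library they belong to is not given in the sources used here, so they entered as a further saline unit, which makes 4 units of 3 deposited libraries, and whether this unit is independent of saline 1 and saline 2 is not known. Counted so, the files held 40606 barcodes and 327178540 UMIs, with 142955760 UMIs in PFF 1, 20788920 in the well of saline 1 alone, 64940311 in the well of saline 2 alone, and 7553070, 30773670 and 60166809 in the shared wells. PFF 1 and saline 2 had 119 barcode sequences in common, against 1 to 42 in the other pairs of wells. Those 119 barcodes had a median of 696 UMIs in PFF 1 and of 59931 in saline 2. Of the barcodes above 15%, 64 had a sequence seen in more than 1 well.

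The share of barcodes above 15% differed widely between wells, and the saline wells held both the highest and the lowest value. It was 5.09% in PFF 1 (658 of 12921, exact 95% interval 4.72% to 5.49%). In saline 1 it was 0.980% (54 of 5513, 0.737% to 1.28%) and in saline 2 16.9% (883 of 5215, 15.9% to 18.0%). In the shared wells it was 23.8% in well 1 (311 of 1304, 21.6% to 26.3%), 49.5% in well 2 (1703 of 3437, 47.9% to 51.2%) and 1.64% in well 3 (142 of 8645, 1.39% to 1.93%). These intervals cover counting error only. The PFF value lay inside the range of the saline wells, and with 1 PFF library the treatment and the library cannot be told apart.

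**Figure D1:**
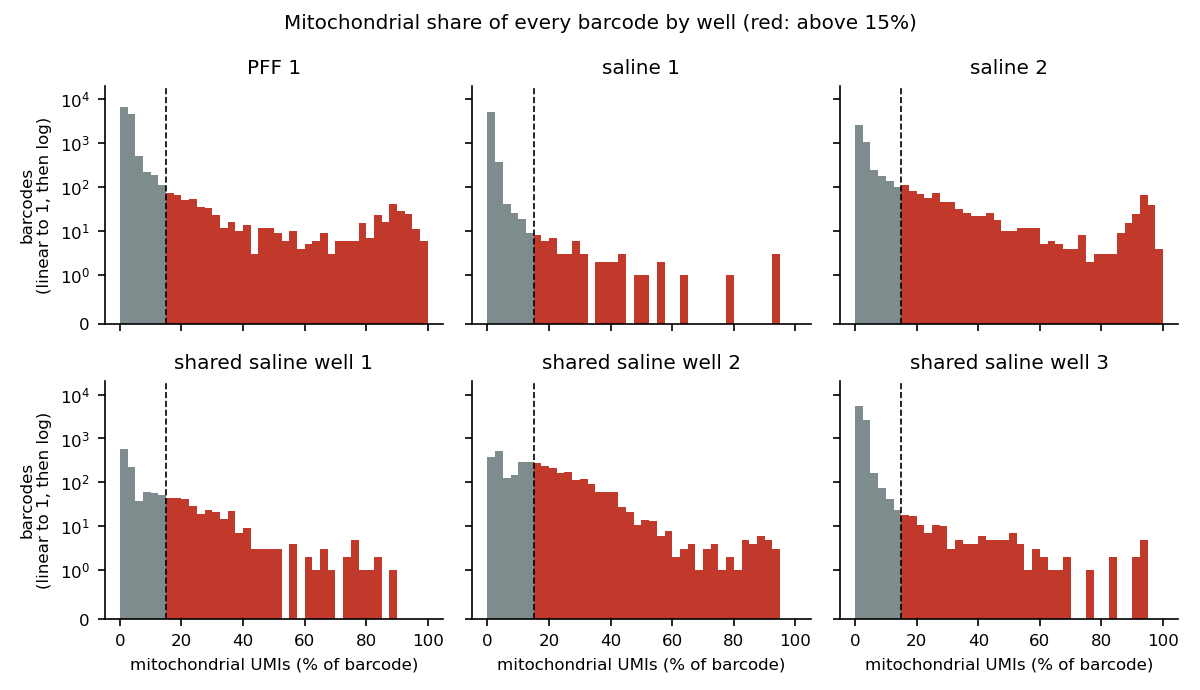
Number of barcodes (vertical axis, linear to 1 and then logarithmic) by mitochondrial share of UMIs (horizontal axis, in percent) in each of the 6 wells, PFF 1 first. The dashed line marks the 15% limit, above which lay 658 barcodes of PFF 1 and between 54 and 1703 barcodes of the saline wells.

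The wells also differed in how deep these barcodes were. Barcodes above 15% had a median of 3475 UMIs in PFF 1, against 9111 in barcodes at or below the limit. The 2 medians were 5691.5 and 3241 UMIs in saline 1, 6377 and 10130 in saline 2, 5631 and 3475 in shared well 1, 7689 and 5366 in shared well 2, and 988.5 and 6102 in shared well 3. Barcodes above the limit were thus shallower in PFF 1, saline 2 and shared well 3, and deeper in saline 1 and shared wells 1 and 2. Detected genes showed a larger gap in 3 of the wells, with medians of 585.5 above and 3276 at or below the limit in PFF 1, 682 and 3440.5 in saline 2, and for shared well 3 408.5 and 2547. In saline 1 and shared wells 1 and 2 the medians lay within 1656 and 2187 genes on both sides.

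The limit fell on a slope rather than in a gap between populations. The 232 barcodes just inside it, at 15% to 16%, had medians of 8990.5 UMIs and 2518.5 genes, and the 224 just outside, at 14% to 15%, had medians of 8676 UMIs and 2368.5 genes. By share, 987 members lay at 15% to 20%, 1243 at 20% to 30%, 883 at 30% to 50%, 277 at 50% to 80% and 361 above 80%. The 361 came mostly from PFF 1 (158) and saline 2 (163), and the remaining wells held between 3 and 24 of them.

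Most members carried the markers of absorptive enterocytes, although the cells had been sorted for CD45, a surface protein of white blood cells, or enriched on CD11b, one of myeloid cells. Barcodes were clustered on their non-mitochondrial genes and clusters were named from marker genes, with "-like" because no protein was measured. Enterocyte-like barcodes made up 73.4% of the members (2752), against 5.42% of the barcodes at or below 15%. T-like barcodes, the main class of the data, made up 9.94% of the members (373), against 69.8% of the barcodes at or below 15%. A further 12.2% (459) were in clusters without a name. Macrophage or monocyte-like barcodes made up 2.32% (87, against 1.22%) and B-like barcodes 1.23% (46, against 4.18%). The rest were 12 conventional DC-like, 8 plasmacytoid DC-like, 6 mast-like, 4 goblet or Paneth-like, 3 tuft-like and 1 plasma-like barcodes, where DC stands for dendritic cell. These shares are a description with no test, since the classes were built from the same barcodes.

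**Figure D2:**
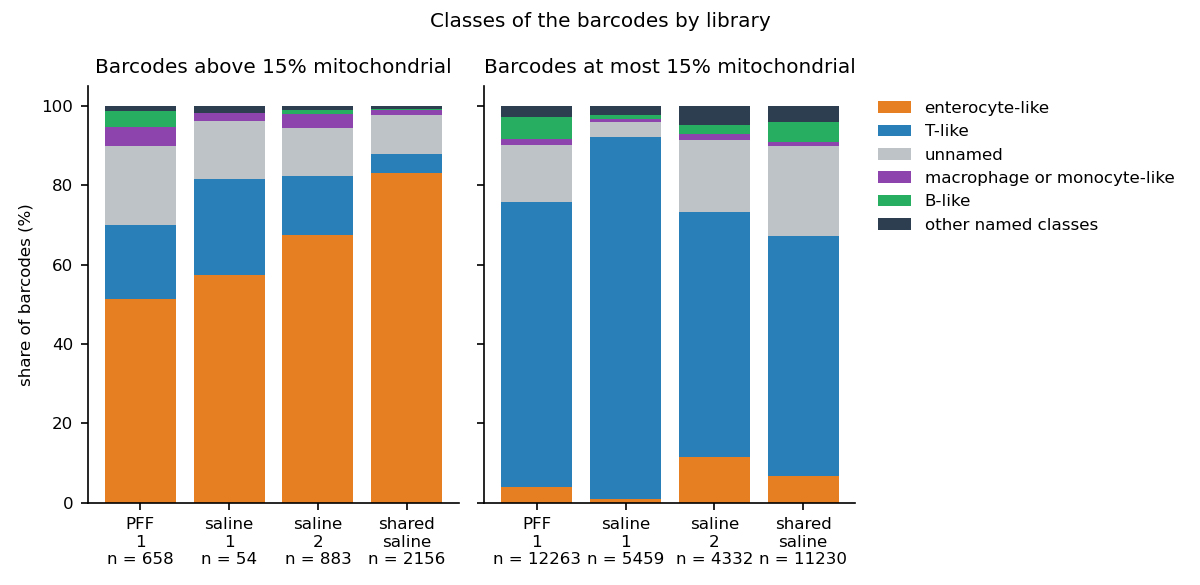
Share of barcodes (vertical axis, in percent) in each class for the 4 libraries, PFF 1 first, with barcodes above 15% mitochondrial UMIs in the left panel and barcodes at most 15% in the right panel. Enterocyte-like barcodes were 51.2% to 83.0% of the barcodes above the limit and 1.01% to 11.5% of those at or below it.

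Enterocyte-like barcodes lay above the limit more often than macrophage or monocyte-like barcodes, and these more often than T-like barcodes, in each of the 4 libraries. Enterocyte-like barcodes lay above it in 40.7% of cases in PFF 1 (337 of 828), against 36.0% in saline 1 (31 of 86), 54.3% in saline 2 (595 of 1095), and 62.4%, 71.7% and 78.6% in shared wells 1 to 3. T-like barcodes did so in 1.39% of cases in PFF 1 (124 of 8921), against 0.26% in saline 1 (13 of 4995), 4.67% in saline 2 (131 of 2807), and 0.52%, 3.63% and 1.32% in shared wells 1 to 3. Macrophage or monocyte-like barcodes did so in 15.02% of cases in PFF 1, against 2.94% in saline 1, 33.3% in saline 2 and 14.9% in the shared wells pooled. B-like barcodes did so in 3.79% of cases in PFF 1, against 0 of 57 in saline 1, 8.33% in saline 2 and 1.79% in the shared wells. Of the 30 mast-like barcodes, 6 lay above the limit, 5 of them in PFF 1. In both enterocyte-like and T-like barcodes the PFF value lay within the range of the saline wells.

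The enterocyte-like members fell into 3 clusters that differed in identity and depth. Cluster 12 held 1773 of them, which was 78.5% of its 2259 barcodes. It was led by enzymes and transporters of mature absorptive cells, among them Tmprss15 (enteropeptidase, which activates trypsinogen), Mgam (maltase-glucoamylase of the brush border), Mme (a membrane peptidase) and Cyp3a11 (a drug-metabolising cytochrome P450). Its median barcode had 22.2% mitochondrial UMIs, so that for this cluster the limit lay below the usual level. Cluster 14 held 902 members, 51.4% of its 1754 barcodes, had a median of only 1118 non-mitochondrial UMIs, and was led by genes that include Ada, Apoa4 and Apob. Cluster 11 held 77 members, 14.2% of its 543 barcodes, and was led by Dmbt1, Reg3b, Reg3g, Gpx2 and Krt19, genes known from the lower villus and its defence. Which cluster supplied the members depended on the library: cluster 14 gave 284 of the 337 enterocyte-like members of PFF 1, 6 of 31 in saline 1, 429 of 595 in saline 2 and 183 of 1789 in the shared wells, while cluster 12 gave 1553 in the shared wells.

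The unnamed members lay mainly in 2 clusters. Cluster 13 (218 members of 439 barcodes, 199 of them in the shared wells) carried enterocyte markers but was led by Ly6m, Clca4a, Cldn4 and Egfr. Cluster 5 (198 members of 376 barcodes, 116 of them in PFF 1) had a median of 616.5 non-mitochondrial UMIs and was led by the hormone gene Gip and the granule genes Chgb and Chga, all known from enteroendocrine cells, yet fewer than 3 fixed markers passed the naming rule. It held 100 of the 361 barcodes above 80%, and enterocyte-like cluster 14 held 244. Of the remaining members above 80%, 5 were T-like and 4 macrophage or monocyte-like.

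What remained outside the mitochondrial transcripts changed in composition with the mitochondrial share. CPM, the counts scaled to a common total of non-mitochondrial UMIs, were summed over all barcodes of each step of the share, and these sums are a description, since the classes and wells differ between steps. Gm42418, a long non-coding RNA locus that overlaps the ribosomal RNA repeat (mm10, 17:39846958-39848788, plus strand), stood at 29421 CPM in barcodes at 0% to 5% mitochondrial UMIs, at 60170 at 15% to 20%, at 145812 at 50% to 80% and at 137420 above 80%. AY036118, another non-coding locus, lies on the other strand within the same stretch (17:39847113-39848035), and whether counting kept the strands apart is not given in the sources used here. Cmss1 (16:57302000-57606864) stood at 3118, 5003, 28830 and 66147 CPM in the same steps. Gphn (12:78226379-78684772) followed with 1250, 2269, 11947 and 16409 CPM, and Cdk8 (5:146231230-146302874) with 1328, 1760, 8141 and 19207 CPM. Camk1d (2:5293457-5714515) and Lars2 (9:123366927-123462666), which encodes the mitochondrial leucyl-tRNA synthetase, were highest at 50% to 80% and lower above it: 19313 and 9371 CPM for Camk1d, 9237 and 4659 CPM for Lars2. These are protein-coding genes in the GENCODE annotation.

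Other abundant transcripts took other courses. Malat1, a nuclear long non-coding RNA, was at 24177 CPM at 0% to 5%, 23906 at 15% to 20%, 21798 at 50% to 80% and 8310 above 80%. Actb, cytosolic actin, was at 5302, 4928, 3111 and 2927 CPM in the same steps. Apoa4, an apolipoprotein that enterocytes secrete with absorbed fat, was at 94, 20849, 9074 and 3806 CPM, and Gzma, a granule protease of the intraepithelial T cells, at 17054, 3200, 2244 and 3486 CPM. Above 80%, enterocyte markers made up 3.02% and T cell markers 0.85% of the non-mitochondrial UMIs.

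The high level of Gm42418 was present in each well that could be compared. In barcodes at most 15%, at 15% to 50% and above 80%, it was 30349, 128326 and 152850 CPM in PFF 1, 27450, 83076 and 135596 CPM in saline 2, and 17349, 46821 and 91990 CPM in shared well 2. Zg16, a goblet cell lectin, was at 2611, 183 and 4672 CPM in these steps of PFF 1 and at 7056, 214 and 2370 CPM in those of saline 2. It was thus lowest at 15% to 50% in both.

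**Figure D3:**
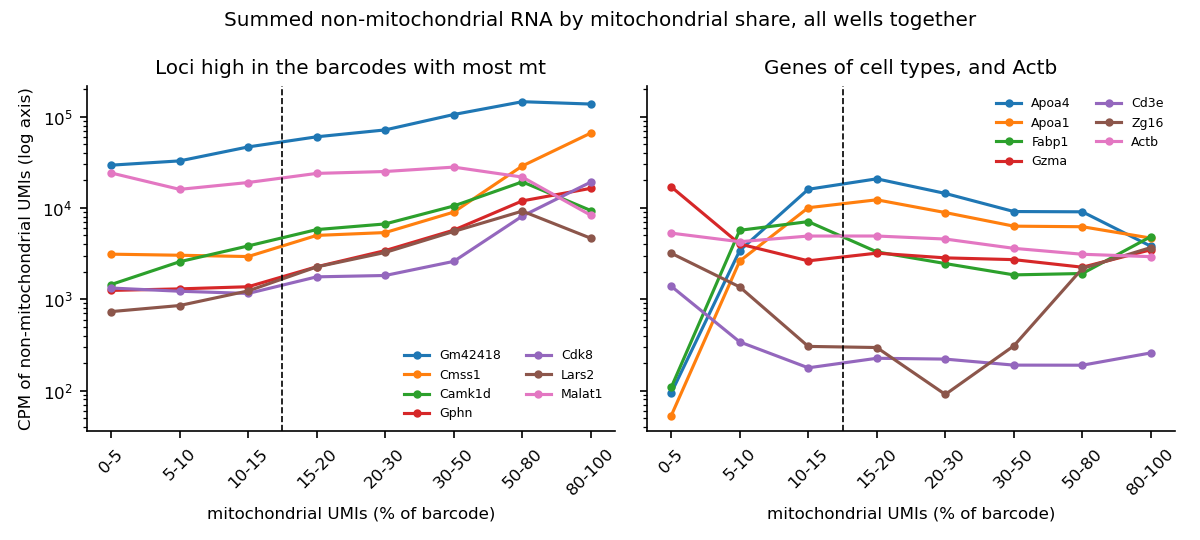
Level of named transcripts (vertical axis, CPM of non-mitochondrial UMIs, logarithmic) over steps of mitochondrial share (horizontal axis, in percent), summed over all barcodes of each step. Gm42418 stands at 29421 at the low end and 137420 at the high end, Cmss1 at 3118 and 66147, and Malat1 at 24177 and 8310.

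Pooled over all barcodes, the 13 mitochondrial transcripts took similar proportions on both sides of the limit. These proportions shifted along the share, over steps that drew on different wells, and some changed in opposite directions by class. The counts of these transcripts chose the members, so these values carry no test. Of all mitochondrial UMIs, mt-Co3 made up 19.7% above the limit and 18.9% at or below it, mt-Atp6 19.2% and 19.0%, mt-Co1 17.5% and 18.5%, and mt-Co2 15.03% and 14.4%. These 4 encode subunits of cytochrome c oxidase and, for mt-Atp6, of ATP synthase. Then came mt-Cytb of complex III with 8.21% and 8.58%, and the complex I genes mt-Nd4 with 5.87% and 5.97%, mt-Nd2 with 4.50% and 4.76%, mt-Nd1 with 4.41% and 4.56%, and mt-Nd3 with 2.87% and 2.21%. The least abundant were mt-Nd5 with 1.14% and 1.44%, mt-Nd4l with 0.903% and 0.780%, mt-Atp8 with 0.547% and 0.671%, and mt-Nd6, the one gene of the set on the light strand, with 0.181% and 0.215%. Over the steps 15% to 30%, 30% to 50%, 50% to 80% and above 80%, mt-Co1 took 19.2%, 18.4%, 16.6% and 13.9% of the mitochondrial UMIs and mt-Atp6 18.3%, 18.7%, 19.4% and 21.0%. The steps differ in their libraries: the shared wells gave 641 of 987 members at 15% to 20% but 37 of 361 above 80%. PFF 1 and saline 2 gave 158 and 163 of the 361. At or below the limit mt-Co1 already differed, at 18.232% in PFF 1, 21.701% in saline 1, 15.952% in saline 2 and 20.001% in the shared wells. The part of library makeup in the shift was not tested. In T-like barcodes mt-Nd3 took a higher share above the limit in each of 3 libraries, at 2.80% against 1.49% in PFF 1, 2.51% against 1.94% in saline 2 and 2.66% against 2.04% in the shared wells. In enterocyte-like barcodes mt-Nd3 took 2.90% above and 2.96% at or below the limit. The pooled value of mt-Nd1 hid opposite changes. In T-like barcodes it was higher above the limit, at 4.50% against 3.804% in PFF 1, 4.843% against 4.204% in saline 2 and 5.02% against 4.387% in the shared wells. In enterocyte-like barcodes mt-Nd1 was lower, at 4.34% against 5.76% in PFF 1, 4.33% against 4.38% in saline 1, 4.63% against 5.73% in saline 2 and 4.26% against 5.26% in the shared wells. Pooled mt-Cytb was lower there too, at 8.19% against 9.52%.

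T-like barcodes above 15% were compared with T-like barcodes at or below it within each library. The question was whether a T-like barcode with a high mitochondrial share holds the same nuclear-encoded RNA as the other T-like barcodes of its library. No T cell marker passed the test, while 11 of 14 enterocyte markers were higher and 8 of 15 cell cycle genes lower in the members. Clusters were named T-like partly from Cd3d, Cd3e and Cd3g, so barcodes that had lost T cell RNA may lie outside the class. Unchanged T cell markers therefore cannot show that T cells with a high mitochondrial share kept this RNA. UMI counts of nuclear genes were summed per library and side of the limit and tested with edgeR, with the library as a block and p-values adjusted over all genes. PFF 1 (124 and 8797 barcodes), saline 2 (131 and 2676) and the shared wells (105 and 6777) entered, and saline 1 had too few (13). Of 13705 genes tested, 89 were called (0.649%): 55 were higher (0.401%) and 34 lower (0.248%) above the limit. The T-like members had medians of 6224 non-mitochondrial UMIs in PFF 1, 8458 in saline 2 and 520 in the shared wells, against 8856, 9430 and 5078 at or below the limit. At least 1 UMI of Cd3d, Cd3e or Cd3g was found in 78.2% of these members in PFF 1, 90.1% in saline 2 and 67.6% in the shared wells, against 99.1%, 98.7% and 98.4% at or below the limit. Expected after thinning each barcode to 400 UMIs, which left out 3, 8 and 29 members, the shares were 59.4%, 81.1% and 55.2%, against 76.6%, 85.1% and 73.7%, so Cd3 was found in a smaller share of the members in 3 of 3 libraries (not tested). In enterocyte-like members, which should lack these genes, it was found in 22.3%, 14.5% and 6.09%, at medians of 1515, 1372 and 5500 non-mitochondrial UMIs (7.69%, 4.29% and 0.909% after thinning).

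None of the 18 tested T cell markers passed the test in either direction (median log2 fold change -0.06, against -0.04 over all genes). Cd3e, a chain of the T cell receptor complex, stood above the limit at 1489 CPM (PFF 1), 1684 CPM (saline 2) and 1323 CPM (shared wells), against 1397, 1833 and 1435 CPM at or below it. Gzma was at 17556, 26970 and 16210 CPM above the limit, against 18100, 28471 and 15419 CPM. None of 30 cytosolic ribosomal protein genes (median -0.17), none of 31 nuclear genes of oxidative phosphorylation (median -0.06), none of 17 apoptosis and p53 genes (median 0.01) and none of 14 immediate early genes (median -0.05) passed. Of 13 cytotoxic effector genes, the chemokine genes Ccl4 and Xcl1 were called lower: Ccl4 was at 351, 298 and 71.5 CPM above the limit, against 365, 476 and 224 CPM (log2 fold change -0.52 ± 0.11 SE, adjusted p = 0.00061). Gm42418 was at 32513, 19394 and 37546 CPM above the limit, against 30673, 20239 and 40193 CPM (log2 fold change -0.07 ± 0.12, adjusted p = 1.00), and its values overlapped between the sides. Its neighbour Gm26917 (17:39843013-39846341), also a non-coding RNA, was higher, at 220.5, 169 and 656 CPM, against 131, 115 and 123 CPM (1.08 ± 0.11, adjusted p = 8.55e-20).

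Of 14 enterocyte markers, 11 were higher in T-like members and none lower (median log2 fold change 1.92), as were 12 of 19 genes of villus absorption. Pigr, which carries immunoglobulin A across the epithelium, stood above the limit at 38.3 CPM (PFF 1), 70.4 CPM (saline 2) and 47.7 CPM (shared wells), against 3.24, 14.8 and 3.10 CPM at or below it. The 2 sides did not overlap, and its log2 fold change was 2.96 ± 0.32 (adjusted p = 1.98e-17). Apoa4 was at 64.7, 89.985 and 340 CPM above the limit, against 12.5, 53.4 and 32.6 CPM (1.93 ± 0.17, adjusted p = 9.52e-27). Lct, the brush border lactase, was at 7.92, 11.7 and 17.9 CPM, against 1.03, 2.77 and 1.39 CPM (2.65 ± 0.64, adjusted p = 0.0073). Further genes named by rank were Apoa1, Apoc2, Prap1, Rbp2, S100g, Fabp1 and Fabp2, which enterocytes use for lipid, retinoid and calcium handling, with log2 fold changes from 1.52 to 2.40. Summed over the 14 markers, enterocyte transcripts were 0.0326% of non-mitochondrial UMIs above the limit and 0.0088% at or below it in PFF 1, 0.0510% and 0.0237% in saline 2, and for the shared wells 0.118% and 0.0117%. The pooled shared wells also mix wells in unequal parts on the 2 sides. Within shared well 2 the sums were 0.174% and 0.102%, and within shared well 3 0.0501% and 0.0024%. The part of RNA from other cells in the droplets was not tested.

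Genes of plasma and red blood cells differed mostly through single libraries. Igkc, the immunoglobulin kappa constant region, was at 48.9, 11.7 and 1931 CPM above the limit, against 29.4, 10.6 and 327 CPM (log2 fold change 1.70 ± 0.13, adjusted p = 8.99e-35), so its difference lay mostly in the shared wells, and among barcodes with at least 1000 UMIs it was -0.07. Jchain and Igha, both of the plasma cell list, were called too, at 316 and 1013 CPM in the shared wells above the limit, against 46.4 and 233 CPM. Of 5 erythroid genes 4 were called higher, but 17220 of the 17223 haemoglobin UMIs of saline 2 above the limit came from 1 barcode. Without barcodes of 1000 or more haemoglobin UMIs, 84 genes were called, none of 3 erythroid genes passed, and the same counts of enterocyte markers (11 of 14) and cell cycle genes (8 of 15) remained called.

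**Figure D4:**
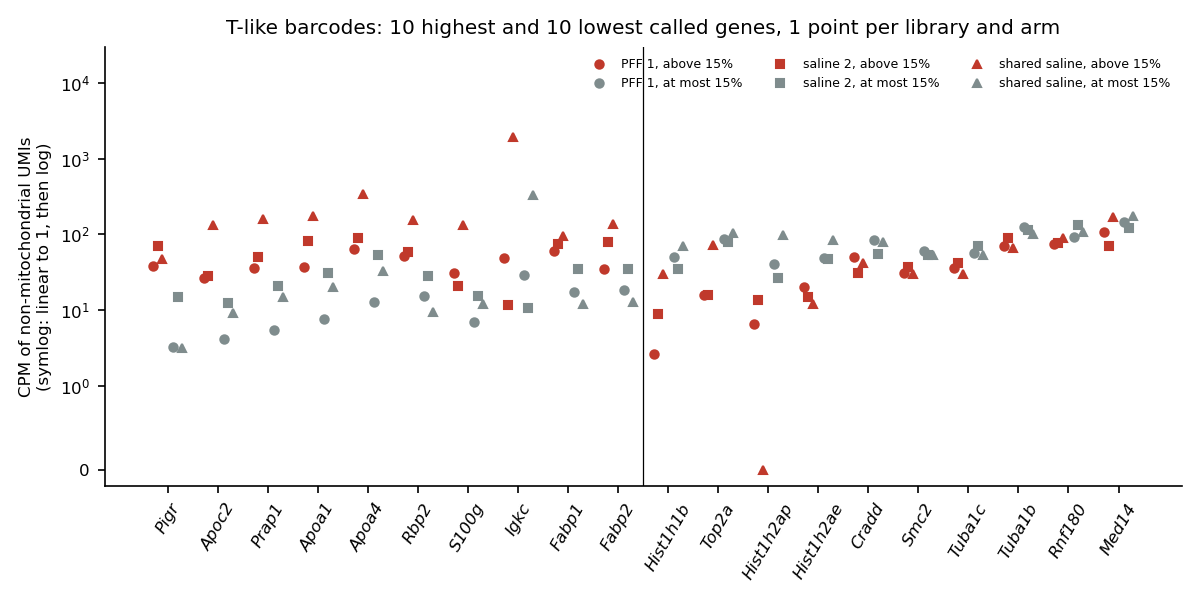
Level of the named genes in T-like barcodes (vertical axis, CPM of non-mitochondrial UMIs, linear to 1 and then logarithmic), with barcodes above 15% mitochondrial UMIs to the left of barcodes at most 15% for each gene and 1 point per library. Pigr stands at 38.3 to 70.4 above the limit and at 3.10 to 14.8 at or below it, and Top2a at 15.7 to 71.5 and at 78.1 to 105.5.

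Of 15 cell cycle genes, 8 were lower in T-like members and none higher (median log2 fold change -1.29). Top2a, the topoisomerase of dividing cells, was at 15.8, 15.7 and 71.5 CPM above the limit in PFF 1, saline 2 and the shared wells, against 87.6, 78.1 and 105.5 CPM (-2.02 ± 0.21, adjusted p = 2.29e-18). Stmn1, a microtubule regulator of proliferating cells, was at 3.96, 11.7 and 17.9 CPM, against 41.6, 41.7 and 50.2 CPM (-2.23 ± 0.30, adjusted p = 1.50e-10). The replication-dependent histone genes Hist1h1b, Hist1h2ap and Hist1h2ae were lower by 2.43, 2.02 and 1.68 on the log2 scale. Mki67, a proliferation marker, was lower in 2 libraries and higher in the third, at 10.6, 13.7 and 203 CPM, against 68.1, 53.6 and 79.1 CPM. Cluster 4, the T-like cluster led by these genes, supplied 1 of 229 barcodes to the members in PFF 1, 1 of 67 in saline 1, 3 of 48 in saline 2 and 9 of 187 in the shared wells. These are 0.437%, 1.49%, 6.25% and 4.81% of its barcodes, against 1.39%, 0.26%, 4.67% and 1.53% of all T-like barcodes, so that the cluster's share lay below that of the class in PFF 1 and above it in the other 3 libraries. The other lower genes named by rank, the tubulins Tuba1b and Tuba1c, the condensin subunit Smc2, and Cradd, Rnf180 and Med14, differed by between -0.83 and -0.55. Without the library block edgeR called none of 13085 genes, and 622 had an unadjusted p under 0.05. DESeq2 called 38.

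Enterocyte-like barcodes above and at or below 15% were compared in the same way in 4 libraries. Across the class the members held far less RNA for ribosomes, cell division and lower-villus functions and more RNA of villus tip genes. Of 12098 genes tested, 4921 were called (40.7%): 2130 were higher (17.6%) and 2791 lower (23.1%). The 3 enterocyte-like clusters were unequally split by the limit, so this comparison also sets cluster 12 against cluster 11. The values of the whole class are therefore followed by those within single clusters.

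All 30 cytosolic ribosomal protein genes were lower (median log2 fold change -2.59, against -0.04 over all genes). Rpl3, of the large ribosomal subunit, was at 101.5 CPM in PFF 1, 23.6 in saline 1, 57.5 in saline 2 and 30.2 in the shared wells above the limit, against 998, 175, 920 and 299 CPM (-3.36 ± 0.24, adjusted p = 1.52e-07). The 2 sides did not overlap. All 31 nuclear genes of oxidative phosphorylation were lower (median -1.07). Ndufa4 was at 250, 319, 374 and 323 CPM, against 1278, 675, 1202 and 1148 CPM (-1.70 ± 0.23, adjusted p = 2.3e-05). Of 22 genes of mitochondrial transcription, translation and import, 18 were lower and 1, the mitochondrial DNA polymerase gene Polg, higher. Tfam, which packages and transcribes mitochondrial DNA, was at 18.7, 23.6, 12.7 and 11.3 CPM, against 64.4, 24.8, 53.1 and 24.1 CPM (-1.42 ± 0.22, adjusted p = 8.2e-05). Of 15 cell cycle genes, 13 were lower (median -2.93), and 3 of 4 crypt genes were lower, among them Olfm4, a marker of crypt base cells.

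Genes placed along the villus differed by their position. Of 10 villus bottom genes, 7 were lower and none higher (median -1.17): the antimicrobial lectin gene Reg3g was at 48.5, 29.5, 415 and 56.3 CPM above the limit, against 179, 47.7, 1146 and 148 CPM (-1.39 ± 0.20, adjusted p = 6.2e-05). Of 10 villus tip genes, 6 were higher and none lower (median 0.75): the nucleoside transporter gene Slc28a2 was at 1067, 1087, 858 and 1433 CPM, against 324, 366, 247 and 866 CPM (1.52 ± 0.26, adjusted p = 0.00026). Of 21 absorption genes, 8 were higher, among them Slc15a1 (the peptide transporter) and Lct, and 1 was lower: Fabp1, a fatty acid binding protein, at 3051, 3716, 4966 and 2797 CPM, against 6013, 8311, 8156 and 10606 CPM (-1.13 ± 0.35, adjusted p = 0.016). Of 15 immediate early genes, 9 were higher, and of 12 interferon response genes 5 were higher and 1, Bst2, lower. Of 15 tested T cell markers, 5 were lower. Of 11 tested goblet or Paneth markers, 7 were higher.

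Among the genes named by rank, Lars2 was at 8126, 2434, 5299 and 3169 CPM above the limit, against 1169, 716, 1457 and 822 CPM (2.15 ± 0.33, adjusted p = 8.2e-05), and Gphn at 10180, 1955, 5232 and 3128 CPM, against 1872, 520, 1699 and 846 CPM (2.02 ± 0.31, adjusted p = 9.3e-05). Neither overlapped between the sides. Acot12, an acetyl-CoA hydrolase, was at 125, 372, 200 and 277 CPM, against 26.7, 122, 34.0 and 115 CPM (1.99 ± 0.25). Il31ra, Nlrp9b, Tenm3, Slc5a12, Cuedc1, Aldh4a1 and Pfkfb3 were the others on the higher side. The lower side held Rbp7, Top2a, Csrp2, Lgals2, Hspe1, Rps2, C1qbp, Ptma and Gpx2 beside Rpl3, with log2 fold changes from -4.72 to -3.24. Gm42418 itself was at 205110, 79829, 117540 and 64276 CPM above the limit, against 43195, 40125, 63282 and 29649 CPM. It was higher in 4 of 4 libraries with no overlap, but did not pass the test (1.35 ± 0.60, adjusted p = 0.082).

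Within a single cluster most of these differences were not called. In cluster 12, which held most members, 1 of 9169 genes was called (0.0109%; 3 libraries without PFF 1, which had fewer than 20 barcodes at or below the limit). This gene was Gm26917 (1.57 ± 0.20, adjusted p = 0.0023), and 1143 genes had an unadjusted p under 0.05. Of the 486 barcodes of cluster 12 at or below the limit, 382 lay at 10% to 15%, just under it. Saline 1 held only 23 of the 486 and saline 2 only 39. So narrow a contrast cannot show that the differences of the class are absent within this cluster. The 30 ribosomal protein genes had a median of -0.73 and the 31 oxidative phosphorylation genes one of -0.61, with none called, and villus tip and absorption genes both had medians of -0.20. In cluster 12 Lars2 was at 0.80 ± 0.25 (adjusted p = 0.18) and Rpl3 at -1.20 ± 0.31 (adjusted p = 0.15). Among enterocyte-like barcodes with 1000 to 5000 non-mitochondrial UMIs, none of 5268 genes was called in 3 libraries, with 906 at an unadjusted p under 0.05.

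In cluster 14, the cluster of few UMIs, 496 of 6511 genes were higher (7.62%) and 812 lower (12.5%) above the limit in 3 libraries. All 14 tested T cell markers were lower (median -1.74), as were 29 of 30 ribosomal protein genes (median -1.27), while none of 31 oxidative phosphorylation genes passed (median -0.06). Of 14 enterocyte markers 9 were higher, and of 21 absorption genes 14 were. The CD3 gamma chain gene Cd3g was at -1.82 ± 0.24 (adjusted p = 5.2e-06), Lct at 1.43 ± 0.24 (adjusted p = 0.00012) and Gm26917 at 2.71 ± 0.27 (adjusted p = 1.3e-07). Of the 1308 genes called in this cluster, 677 were among the 4921 of the whole class, 643 of them in the same direction. Lower ribosomal protein RNA above the limit was thus called in the whole class and in cluster 14, and of these 3 fits the one of the whole class called lower oxidative phosphorylation RNA.

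**Figure D5:**
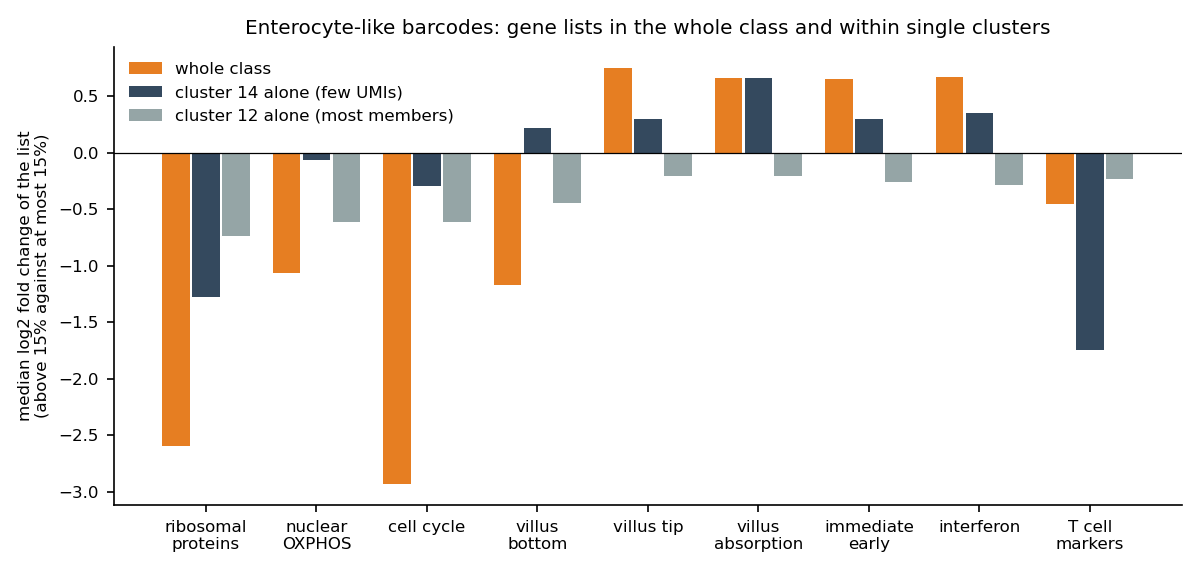
Median log2 fold change of each gene list in enterocyte-like barcodes, above 15% over at most 15% mitochondrial UMIs (vertical axis), by list (horizontal axis), for the whole class, for cluster 14 alone and for cluster 12 alone. The 30 ribosomal protein genes stand at -2.59, -1.27 and -0.73, and the 31 oxidative phosphorylation genes at -1.07, -0.06 and -0.61.

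Macrophage or monocyte-like members were few. They held fewer transcripts of Ccr2, Fn1, S100a6, Vim and Chil3, and also of T cell genes. They held more of Cxcl9, Mmp9 and Ccl24, and also of enterocyte genes and of the plasma cell gene Igkc. Macrophages of the gut are renewed from blood monocytes, which carry the chemokine receptor gene Ccr2 and lose it as they mature. PFF 1 (32 and 181 barcodes), saline 2 (31 and 62) and the shared wells (23 and 131) entered. With finer clustering, at Leiden resolution 2, barcodes named macrophage or monocyte-like lay in separate clusters. One had 83 of 385 barcodes above the limit and the other 4 of 117, so the comparison also sets unequal mixtures of these clusters against each other. The part of this in the result was not tested. Of 5368 genes tested, 35 were called (0.652%), 15 higher (0.279%) and 20 lower (0.373%) above the limit. Ccr2 was at 0, 25.1 and 52.8 CPM above the limit, against 356, 501 and 386 CPM (-4.37 ± 0.73, adjusted p = 6.9e-06). Fn1, S100a6, Vim and Chil3, all known from monocytes but Fn1 and Vim also from fibroblasts, were lower too, and Chil3 had no count in the members (at least 5.70-fold lower, with 3 counts over the group as the floor). Fibroblast markers had no count in the members of these 3 libraries, and summed to 0.0111%, 0.0436% and 0.00015% of non-mitochondrial UMIs at or below the limit in PFF 1, saline 2 and the shared wells, a difference whose part in the levels of Fn1 and Vim was not tested. The complement genes of resident macrophages lay higher without passing: C1qa was at 5209, 3209 and 4276 CPM, against 1615, 2084 and 1630 CPM (1.28 ± 0.37, adjusted p = 0.057).

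On the higher side, Cxcl9, an interferon-induced chemokine, was at 406, 1341 and 1320 CPM in PFF 1, saline 2 and the shared wells, against 246, 276 and 347 CPM (1.71 ± 0.40, adjusted p = 0.0092). Mmp9, a matrix metalloproteinase, was at 185, 364 and 317 CPM, against 34.9, 33.6 and 123 CPM (2.49 ± 0.54, adjusted p = 0.0022), and the eosinophil attractant gene Ccl24 was higher in 3 of 3 libraries. Mmp9 is also a neutrophil gene, and the neutrophil markers, Mmp9 among them, summed to 0.0222% above and 0.0074% at or below the limit in PFF 1, 0.0451% and 0.0115% in saline 2, and for the shared wells 0.0475% and 0.0195%. Above the limit Mmp9 itself made up most of each of these sums, so they say little about other neutrophil RNA. The part of neutrophil RNA in this result was not tested. Pigr, Reg1, Rbp2, S100g, Fabp1 and Igkc, genes of enterocytes and plasma cells, were called higher as well. Ifi27l2b had the highest log2 fold change of the genes named by rank (4.25 ± 1.11), on 5, 2 and 2 counts above the limit. Enterocyte markers summed to 0.137% of non-mitochondrial UMIs above the limit and 0.0232% at or below it in PFF 1, 0.0878% and 0.0664% in saline 2, and for the shared wells 0.164% and 0.0216%. The T cell genes Cd247, Themis and Skap1 were lower, as were Cd226 and Gsn. T cell markers summed to 0.301% and 1.29%, 1.10% and 0.699%, and 0.275% and 1.06%. The part of RNA from other cells was not tested. The count of called genes was 5 without PFF 1, 112 without saline 2 and 7 without the shared wells.

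At equal depth, T-like and macrophage or monocyte-like members had fewer genes in 3 of 3 libraries and enterocyte-like members in 2 of 4, in designs too small to reach an exact p of 0.05. Each barcode was thinned to 400 non-mitochondrial UMIs, which left out 3 to 29 T-like members and 1 to 50 enterocyte-like members per library, and none at or below the limit. T-like barcodes then had medians of 326 genes above and 329 at or below the limit in PFF 1, 320 and 321 in saline 2, and for the shared wells 318 and 323. Without thinning, the medians were 2563 and 3276, 3122 and 3365, and 406 and 2287 genes. The mean thinned difference was -3.0 genes (SD 2.0, n = 3, exact sign-flip permutation p = 0.25, 2-sided, the smallest 3 libraries allow). Enterocyte-like barcodes had 231 and 243 genes in PFF 1, 315 and 301 in saline 1, 247 and 251.5 in saline 2, and for the shared wells 303 and 296, with 2 libraries in each direction (exact permutation p = 0.875, smallest possible 0.125). Macrophage or monocyte-like barcodes had 260.5 and 283, 269.5 and 283.5, and 283 and 307 genes, lower above the limit in 3 of 3 libraries (mean -20.2, SD 5.39, exact permutation p = 0.25).

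PFF and saline were compared among the members of a class, with 1 PFF library. Its own spread was not measured. The test took the spread from the saline libraries and from all genes together, so a call can stand where the saline libraries themselves differ widely. Treatment and library cannot be told apart in any of these values. Among enterocyte-like members the called genes were all higher in PFF 1: 14 of 10719 (0.131%). The count was 4 with DESeq2, 103 without saline 1, 193 without saline 2 and 63 without the shared wells. Bcl2, an inhibitor of apoptosis, was at 135 CPM in PFF 1, against 41.4, 23.1 and 15.2 CPM in saline 1, saline 2 and the shared wells (3.003 ± 0.331, adjusted p = 0.0012). Fcgbp, a goblet cell mucus protein, was at 131 CPM, against 5.91, 26.2 and 16.4 CPM (2.98 ± 0.35, adjusted p = 0.0016). AY036118 was at 5516 CPM, against 1689, 1347 and 1297 CPM (2.25 ± 0.29, adjusted p = 0.0039). Zg16, Muc2 and Fcgbp were 3 of 11 tested goblet or Paneth markers, and the whole marker list summed to 0.0767% of non-mitochondrial UMIs in PFF 1, against 0.0142%, 0.0313% and 0.0204%. In enterocyte-like barcodes at or below 15% this sum was 0.0606% in PFF 1, against 0.0058%, 0.0132% and 0.0116%, so PFF 1 was highest on that side of the limit too. The other called genes were Bc1, Tcrg-C1, Esrrg, St6galnac3, Igkc, Dmbt1, Filip1l, Pycard and Rps19. None of 14 enterocyte markers, 21 absorption genes or 31 oxidative phosphorylation genes passed. As given above, cluster 14 supplied most of the PFF members and cluster 12 most of the shared saline members, and the part of this in the result was not tested.

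Among T-like members, 10 of 8732 genes were called (0.115%), all lower in PFF 1. Of these, 4 were the haemoglobin genes of the single saline 2 barcode, such as Hba-a1, with no count in PFF 1, against 4281 and 0 CPM in saline 2 and the shared wells. Igkc was at 48.9 CPM in PFF 1, against 11.7 and 1931 CPM, and Jchain, Igha, Mki67, Tmem163 and Gramd3 were likewise highest in the shared wells. Without barcodes rich in haemoglobin 5 genes were called, and DESeq2 called 0, with 19 at an unadjusted p under 0.05. None of 17 T cell markers passed (median -0.23, against -0.02 over all genes). The difference between PFF 1 and saline in the contrast of above against at most 15%, tested as an interaction in T-like barcodes, was called for 10 of 14983 genes (0.0667%), 5 of them higher (0.0334%) and 5 lower (0.0334%) in PFF 1, and 4 of these were the haemoglobin genes.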

How the data were processed

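Whole-number UMI counts of 32285 genes were used as deposited. They were made with Cell Ranger 7.0.0, per the file headers, on mm10, per the submitters' processing notes. The barcodes above 15% and all gene lists were chosen with earlier results of these data known. Counts were scaled to 10000 non-mitochondrial UMIs per barcode and log-transformed. Clustering used 2000 variable genes without mitochondrial, ribosomal, haemoglobin, antigen receptor, sex-linked and immediate early genes, 30 principal components, 15 neighbours and Leiden resolution 1 in scanpy 1.11.5 (Python 3.11.15), with no batch integration. The naming rule was set after the clusters were seen: a class needed at least 3 of its markers in at least 25% of barcodes and raised 2-fold, and a T-like cluster needed all of Cd3d, Cd3e and Cd3g, in 50% of its barcodes or more. Clusters led by markers of another class or with fewer markers stayed unnamed. Names can differ from the study's.

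Scrublet's automatic threshold marked between 0% and 1.02% of barcodes per well and had not worked in 4 of the 6 wells, so doublets were kept. Removing the highest scores, at 0.8% of the barcodes per 1000, was an alternative.

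Counts were summed per class, library and side of the limit, without mitochondrial genes, wherever both sides had at least 20 barcodes. The test was the 2-sided quasi-likelihood F test of edgeR 4.0.16 (R 4.3.3) with the library as a block, after filterByExpr and scaling by TMM (calls at a Benjamini-Hochberg adjusted p under 0.05), after a test on simulated data. In the simulated data, 2-fold changes were recovered in 48% of cases for T-like, 64% for enterocyte-like and 4% for macrophage or monocyte-like barcodes. For 4-fold changes the values were 75%, 91% and 32%. Both sides of a library come from the same wells, which is the basis of the block. The shared saline library, however, pools its wells in unequal parts on the 2 sides. For T-like barcodes, shared well 2 gave 90822 of 167793 non-mitochondrial UMIs above the limit, against 3088481 of 38085825 at or below it. The block does not remove this difference. With each well as a library, edgeR called 67 of 10767 genes in T-like and 5472 of 11200 in enterocyte-like barcodes. CPM are raw counts relative to non-mitochondrial UMIs, and fold changes are TMM-normalised. Named genes were the 10 highest and 10 lowest called genes by fold change at 50 CPM or more with the same sign in every library, the 5 highest and 5 lowest in PFF against saline, and members of the gene lists. Within-cluster fits, fits without barcodes rich in haemoglobin, and the macrophage alternatives were chosen after seeing the data. Other alternatives were DESeq2 1.42.0, RLE normalization, no low-count filter, other limits, depths, resolutions and libraries. Coordinates are of GENCODE on the same build.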

Additional observations from a re-analysis of the deposited data

Results flagged for a closer look

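In T-like barcodes the contrast of above against at most 15% mitochondrial UMIs differed between PFF 1 and the saline libraries for 10 of 14983 genes (0.0667%; edgeR interaction term, 1 residual degree of freedom), 5 with a higher and 5 with a lower contrast in PFF 1. Of these, 4 were haemoglobin genes, with adjusted p = 1.35e-22 for Hba-a1 and for Hba-a2, 3.20e-36 for Hbb-bs and 5.74e-31 for Hbb-bt. In PFF 1 at or below the limit 10583 of 10647 haemoglobin UMIs lay in 1 barcode, and in saline 2 above it 17220 of 17223 did. Without barcodes of 1000 or more haemoglobin UMIs 5 genes were called. Tprkb (adjusted p = 0.0035) was at 85.8 CPM above and 36.7 CPM at or below the limit in PFF 1, against 22.5 and 53.7 CPM in saline 2 and 41.7 and 34.6 CPM in the shared wells. Junb, an immediate early transcription factor gene (adjusted p = 0.013), was at 143 and 67.1 CPM in PFF 1, against 75.3 and 90.1 CPM in saline 2 and 53.6 and 87.2 CPM in the shared wells. Mki67 (adjusted p = 0.013) was at 10.6 and 68.1 CPM in PFF 1, against 13.7 and 53.6 CPM in saline 2 and 203 and 79.1 CPM in the shared wells, so the shared wells alone went the other way. Bc1 and Tut1 (adjusted p = 0.013 for both) and Abcb1b (adjusted p = 0.015) were the other called genes, and Abcb1b rested on 23 counts above the limit in PFF 1, against 0 in saline 2 and 1 in the shared wells.

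Barcodes left out by the minima on UMIs and genes held a second set with a high mitochondrial share. In PFF 1, 2428 of the 15352 deposited barcodes (15.8%) were below a minimum and above 15% mitochondrial UMIs, with a median of 50 non-mitochondrial UMIs and of 98.0% mitochondrial UMIs. The share was 2.08% in saline 1, 7.34% in saline 2 and 12.7%, 5.48% and 0.985% in shared wells 1 to 3, so that PFF 1 had the highest value of the 6 wells. In these barcodes Gm42418 was at 150615 CPM in PFF 1, against 135022 and 130361 CPM in saline 1 and saline 2 and 177074, 78010 and 144018 CPM in shared wells 1 to 3, so PFF 1 lay within the range of the saline wells.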

How the results depend on the processing

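The share of barcodes above 15% mitochondrial UMIs was 10.1%, and 13.7% with a limit of 10%, 7.46% with 20%, 9.55% with at least 1000 UMIs and 17.6% with no minimum on genes. The enterocyte-like share of these barcodes (73.4%) was 69.7% and 75.5% with those limits, 76.6% with at least 1000 UMIs, and 84.3% and 71.7% at Leiden resolutions 0.5 and 2. The T-like share (9.94%) was 11.1% with a limit of 10%, 7.82% with at least 1000 UMIs, 8.50% at resolution 0.5 and 12.2% with classes from nearest neighbours.

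The 89 genes called in T-like barcodes became 177 with classes from nearest neighbours, 38 with DESeq2, 0 without the replicate block, 37 to 39 with PFF 1 or saline 2 left out and 54 without the shared wells. The 4921 genes called in enterocyte-like barcodes became 2664 without the replicate block, 2725 to 5222 with 1 library left out (2725 without saline 2), 1308 in cluster 14 alone, 1 in cluster 12 alone and 0 at 1000 to 5000 non-mitochondrial UMIs. The 35 in macrophage or monocyte-like barcodes became 22 without the replicate block, 5 without PFF 1, 112 without saline 2 and 7 without the shared wells. Between PFF and saline, the 10 genes of T-like members became 0 with DESeq2 and 5 without haemoglobin-rich barcodes, and the 14 of enterocyte-like members 152 without the low-count filter, 4 with DESeq2, 103 and 193 without saline 1 or saline 2 and 63 without the shared wells. The 10 genes of the interaction became 5 without haemoglobin-rich barcodes. The cause was not tested where the setting itself does not remove samples or genes.

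Of the named genes' values under all alternatives, 759 kept direction and call, 164 lost the call and 4 changed direction: Igkc in T-like barcodes with at least 1000 UMIs (-0.069), Cuedc1 in cluster 14 alone (-0.13), and Hbb-bs (1.33) and Hbb-bt (1.25) in the interaction without haemoglobin-rich barcodes. The T-like fit at 1000 to 5000 UMIs was not run, since 1 library had 20 barcodes on both sides. No paired analysis was possible because PFF and saline share fewer than 2 replicate numbers. Depth limits the T-like members of the shared wells (167793 non-mitochondrial UMIs in all) and the macrophage or monocyte-like members (18944 to 79771 UMIs per library).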

Other observations

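Within T-like barcodes the clusters that supplied the members differed between libraries. Cluster 8, led by Gm42418, supplied 36 of the 124 members of PFF 1, against 24 of 131 in saline 2 and 24 of 105 in the shared wells. Cluster 1, led by the granzyme genes Gzmb and Gzma, supplied 7 in PFF 1, against 46 in saline 2 and 7 in the shared wells, and cluster 0 supplied 18 in PFF 1, against 5 and 40. These counts follow the clusters' own sizes as well as their mitochondrial shares, and no test was made.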
